A study of Mus musculus with 5 samples.

Results

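The liver X receptor (LXR) axis was examined as 10 named genes that sense, export, store or release cholesterol: the receptors Nr1h3 and Nr1h2, the LXR target genes Abca1, Abcg1, Mylip and Srebf1, the storage enzyme gene Soat1, and the lysosomal genes Lipa, Npc1 and Npc2. The genes were taken by symbol, and all 10 of 10 were found among the 23420 genes of the deposited table. Forebrain cells carrying CD11b, a surface integrin of microglia and other myeloid cells, had been sorted from mice at postnatal day 8 and sequenced as polyA RNA, with dead cells removed by propidium iodide. The knockout group held 3 libraries from mice with the genotype Cx3cr1-CreERT/+: Stat3 fl/fl, in which a tamoxifen-inducible Cre recombinase sits at Cx3cr1 and the transcription factor gene Stat3 is floxed. Tamoxifen was given each day from postnatal day 1 to 3. The control group held 2 libraries from Stat3fl/fl littermates without Cre, so both groups carry the floxed Stat3 alleles. The Cre allele and 1 altered copy of Cx3cr1 go together with the intended deletion of Stat3, and their effects cannot be told apart. The labels name tamoxifen for the mice with Cre and do not state whether the controls received it, and their treatment field calls the samples untreated. Each library pools 2 to 4 male and female pups of 1 genotype. The Cre acts in microglia and in other cells that express Cx3cr1.

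LXRs are nuclear receptors that bind oxysterols, which are oxidized forms of cholesterol, and pair with retinoid X receptors on DNA. When activated in macrophages and microglia they raise genes that pass cholesterol to lipoproteins outside the cell and genes that limit its uptake. Microglia meet much cholesterol when they engulf myelin and dying cells. It is freed in the lysosome and then exported, or esterified and kept in lipid droplets.

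LXRs bind a repeat of short half-sites spaced by a few bases, and the promoters are shown first because 2 of the 3 LXR target genes searched, Abca1 and Srebf1 but not Mylip, carry near-identical copies of such a repeat. Promoter windows from RefSeq (GRCm38.p6), from 250 bases before to 50 bases after each transcription start, were found for 8 of the 10 genes in 11 windows. Promoters of Abcg1 and Npc1 were not analysed here. The STAT motif TTCNNNGAA was in none of the 11, and in 8.3% of all 32851 windows. The repeat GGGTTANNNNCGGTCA was present in the windows of Abca1 and Srebf1, read on the strand opposite to the gene, and in 3 of the 32851 windows (0.00913%). Its letters were chosen after these windows had been read, so the share describes how rare it is and tests nothing. The consensus LXR repeat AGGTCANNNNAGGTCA, searched on both strands like the other motifs, was in none of the 11 windows and in 0.0152% of all. The elements of Abca1 and Srebf1 share 14 of 16 bases, but all bases outside the NNNN spacer are fixed by the pattern that found them. On the strand of the gene the elements read as follows.
Abca1 element: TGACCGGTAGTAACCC
Srebf1 element: TGACCGCCAGTAACCC
The Abca1 element lies at chr4:53159947-53159962, where it begins 67 bases before the start site. That of Srebf1 lies at chr11:60210638-60210653 and begins 182 bases before the start site of Srebf1 that lies inside the gene, 1 of several listed for it. The 250 bases before each start are given below with the element in capitals, for Abca1 at chr4:53159896-53160145 and for Srebf1 at chr11:60210472-60210721, both on the minus strand.
Abca1 promoter: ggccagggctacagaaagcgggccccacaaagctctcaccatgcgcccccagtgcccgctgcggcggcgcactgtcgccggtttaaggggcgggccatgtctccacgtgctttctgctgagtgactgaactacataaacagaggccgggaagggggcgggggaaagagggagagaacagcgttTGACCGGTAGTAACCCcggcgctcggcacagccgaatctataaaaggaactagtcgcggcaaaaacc
Srebf1 promoter: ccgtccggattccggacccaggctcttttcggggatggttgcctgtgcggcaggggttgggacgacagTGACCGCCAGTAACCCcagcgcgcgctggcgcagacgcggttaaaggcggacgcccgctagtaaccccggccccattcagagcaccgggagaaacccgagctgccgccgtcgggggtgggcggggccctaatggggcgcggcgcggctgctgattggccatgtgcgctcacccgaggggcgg
A match describes the letters in a window and is not evidence that a receptor was bound there in these cells.

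Values are log2 expression, centred for each gene on a baseline the table does not list. Differences between libraries can therefore be read for each gene, while levels of different genes cannot be compared. The depth per library is unknown. Where a gene has no reads, its values follow 1 fixed, very narrow pattern across the libraries, called the 0-read value below. The tested genes numbered 9459. Control replicate 1 had at most 7840 of them above the 0-read value, against at most 8258 to 8502 in the other libraries. Both controls stood apart from the rest and from each other, control replicate 1 on the first principal component (37.5% of the variance) and control replicate 2 on the second (25.3%). Stat3 was not lower in the knockout group: it stood at 0.96, 0.07 and 0.24, against 0.08 and 0.45 in the controls (limma adjusted p = 0.941). A value per gene can include exons outside the floxed part. The 3 libraries are therefore called the libraries labelled knockout. Cx3cr1 stood at 3.36, 3.34 and 3.00 against 4.32 and 3.95 (adjusted p = 0.605). The microglial marker list averaged 2.53 to 2.86 in the libraries labelled knockout and 2.75 to 2.95 in the controls, and none of its 12 genes was found at the 0-read value in 4 or more libraries. Of the markers of other brain cells, 1 of 7 for astrocytes, 4 of 8 for the oligodendrocyte lineage, 3 of 7 for neurons and 3 of 6 for endothelium were at the 0-read value in all 5 libraries, among them Aldh1l1, Olig2, Syt1 and Cldn5. Others were taken as above the 0-read value in at least 2 libraries and tested. They were 5 astrocyte, 1 oligodendrocyte, 2 neuronal and 3 endothelial markers, among them Slc1a3, Mbp, Tubb3 and Cdh5. The endothelial marker Ly6c1 was also among them, but stood at -0.09, -0.09 and -0.10 against -0.09 and -0.10. That is as narrow as the 0-read pattern, so Ly6c1 may hold no reads.

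None of the 10 genes differed between the groups at an adjusted p under 0.05 (limma, adjusted over all tested genes). Soat1, which encodes the enzyme that esterifies cholesterol for storage, stood farthest apart and lay above both controls in all 3 libraries labelled knockout. Abca1, the main cholesterol exporter, was lower in each of them by a small amount. Mylip, whose product marks lipoprotein receptors for degradation, had the most negative difference, but its groups overlapped. Of the 10 genes, 5 had a positive and 5 a negative difference, with a median of 0.065, where 60.2% of all tested genes had a positive difference and their median was 0.13. The count past the threshold was 0 of 10, as it was for all tested genes (0% higher and 0% lower). At an unadjusted p under 0.05 it was 1 of 10, against 5.76% of tested genes higher and 2.27% lower. For 1 of the 10 every library labelled knockout lay above both controls, against 17.1% of tested genes, and for 1 every such library lay below both, against 7.02%. By the fixed pattern, Soat1 and Nr1h3, 2 of the 10, were counted as tested through libraries labelled knockout alone, as were 14.9% of all tested genes. For Soat1 the 2 controls do not settle this. A gene tested in that way could only have a positive difference. The shares are near the background, so the counts single out nothing about the 10 genes.

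**Figure D1:**
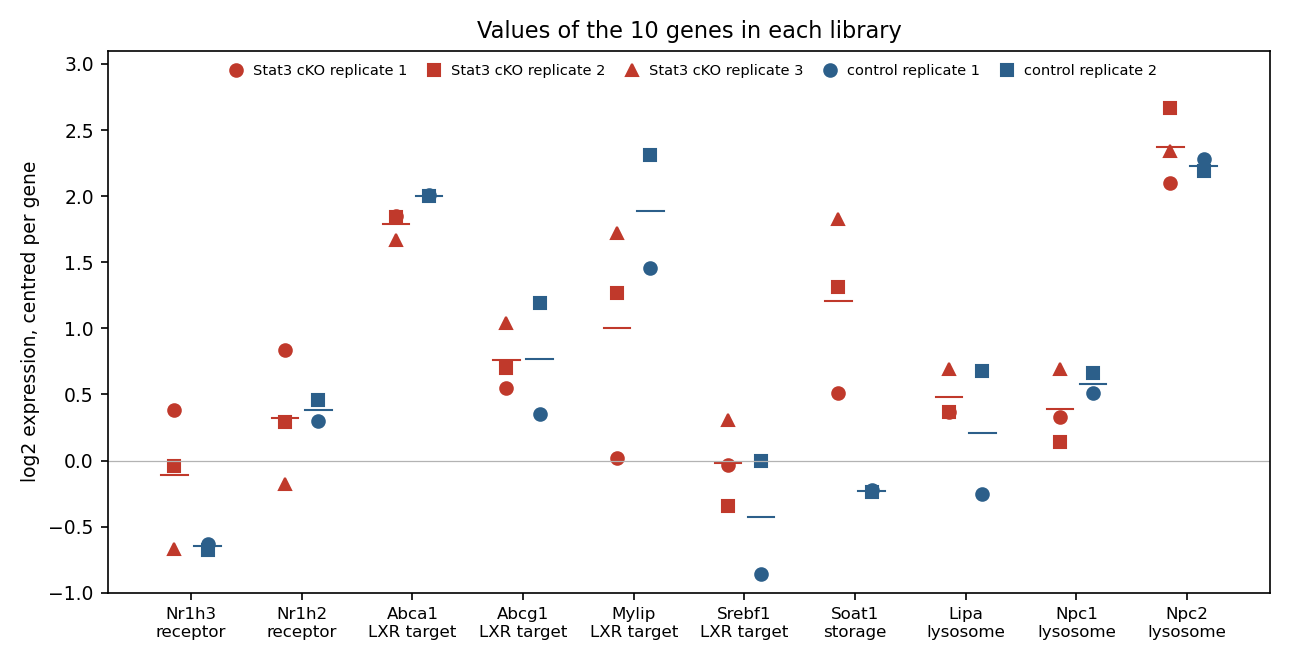
Log2 expression centred per gene (y axis) of the 10 genes (x axis, with their roles) in each library, with red for the libraries labelled knockout, blue for the controls, marker shapes for replicate numbers and short lines for group means. Soat1 lies at 0.51 or above in red and at -0.22 or below in blue, and Nr1h3 of knockout replicate 3 lies with the controls.

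The receptor gene Nr1h3, which encodes LXR alpha, lies on chromosome 2 from 91184061 to 91202834 (GRCm38, GENCODE vM21). It stood at 0.38, -0.04 and -0.67 in knockout replicates 1, 2 and 3, and at -0.63 and -0.68 in the controls. Knockout replicate 3 and both controls were at the 0-read value, so the gene was detected in 2 of the 3 libraries labelled knockout and in 0 of the 2 controls. The log2 difference was 0.54 with SE 0.41 and a 95% interval from -0.42 to 1.50 (limma adjusted p = 0.757). Leaving out knockout replicate 1 made it 0.30, and leaving out knockout replicate 3 made it 0.82. Nr1h3 passed the filter on low values through libraries labelled knockout alone, so its positive difference is no independent sign of direction. Nr1h2 encodes LXR beta, the more widely expressed receptor, and lies on chromosome 7 from 44549616 to 44553951. It stood at 0.84, 0.29 and -0.18 in the knockout-labelled libraries, against 0.30 and 0.46 in the controls. Both controls lay within the range of the other group, with a log2 difference of -0.06 (95% interval from -1.01 to 0.89, adjusted p = 0.973). For both receptors the order among the libraries labelled knockout was the same, with replicate 1 highest and replicate 3 lowest.

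Of the 4 LXR target genes, 3 had a negative difference, among them Abcg1 at -0.008, and 1 a positive one, and 0 passed. Of all tested genes 60.2% were positive. The signs of Abcg1 and Srebf1 changed when single libraries were left out. Abca1 encodes the transporter that loads cholesterol and phospholipid onto apolipoproteins, and lies on chromosome 4 from 53030787 to 53159895. It stood at 1.85, 1.84 and 1.67 in the knockout-labelled libraries, against 2.01 and 2.00 in the controls. The groups did not overlap, and both were narrow, with means of 1.79 ± 0.10 (SD, n = 3) and 2.00 ± 0.005 (SD, n = 2). The log2 difference was -0.22 with SE 0.32 and a 95% interval from -0.97 to 0.54 (adjusted p = 0.882). limma's SE draws on the spread of all tested genes and is wider than the spread of this gene alone. The 3 values of the libraries labelled knockout were spaced as equal read counts in libraries of different size would be: the gap from replicate 1 to 2 was 0.0618 of that from replicate 1 to 3, and the fixed pattern gives 0.0615. Spacing within 2% of that ratio was found in 2.46% of tested genes. Abca1 kept its negative difference under each of the 11 alternatives run, from -0.46 to -0.16. Because its groups did not overlap, leaving out a library could not turn its sign. A changed filter or variance estimate leaves the difference as it was.

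Abcg1 encodes the transporter that passes cholesterol on to high-density lipoprotein, and lies on chromosome 17 from 31057675 to 31117988. It stood at 0.55, 0.70 and 1.04 in the knockout-labelled libraries, against 0.35 and 1.19 in the controls. The controls enclosed the other group, and the log2 difference was -0.01 (95% interval from -0.94 to 0.92, adjusted p = 0.998). Its sign followed the control that was kept: -0.43 without control replicate 1 and 0.41 without control replicate 2. The 2 exporters therefore cannot be said to differ in the same way or in different ways. Mylip, on chromosome 13 from 45389742 to 45412022, encodes the ubiquitin ligase also called IDOL. It stood at 0.02, 1.27 and 1.72 in the knockout-labelled libraries, against 1.46 and 2.31 in the controls. Knockout replicate 1 was far below the other 4 libraries, and replicate 3 lay between the controls. The group means were 1.00 ± 0.88 (SD, n = 3) and 1.89 ± 0.60 (SD, n = 2), so the log2 difference was -0.88 (SE 0.57, 95% interval from -2.23 to 0.46, adjusted p = 0.754). The difference was -0.39 without knockout replicate 1 and -0.45 without control replicate 2.

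Srebf1 encodes SREBP-1, which drives fatty acid synthesis, and its SREBP-1c form is a classical LXR target. The gene lies on chromosome 11 from 60199089 to 60222581, and the table has 1 value for all of its transcripts. It stood at -0.03, -0.34 and 0.31 in the knockout-labelled libraries, against -0.86 and 0.00 in the controls. Control replicate 1 was the lowest library, and control replicate 2 lay inside the other group. The log2 difference was 0.41 with a 95% interval from -0.56 to 1.38 (adjusted p = 0.789), but -0.02 without control replicate 1 and 0.84 without control replicate 2. Abca1 and Srebf1, whose promoters hold the element printed above, had differences of opposite sign, and neither passed.

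**Figure D2:**
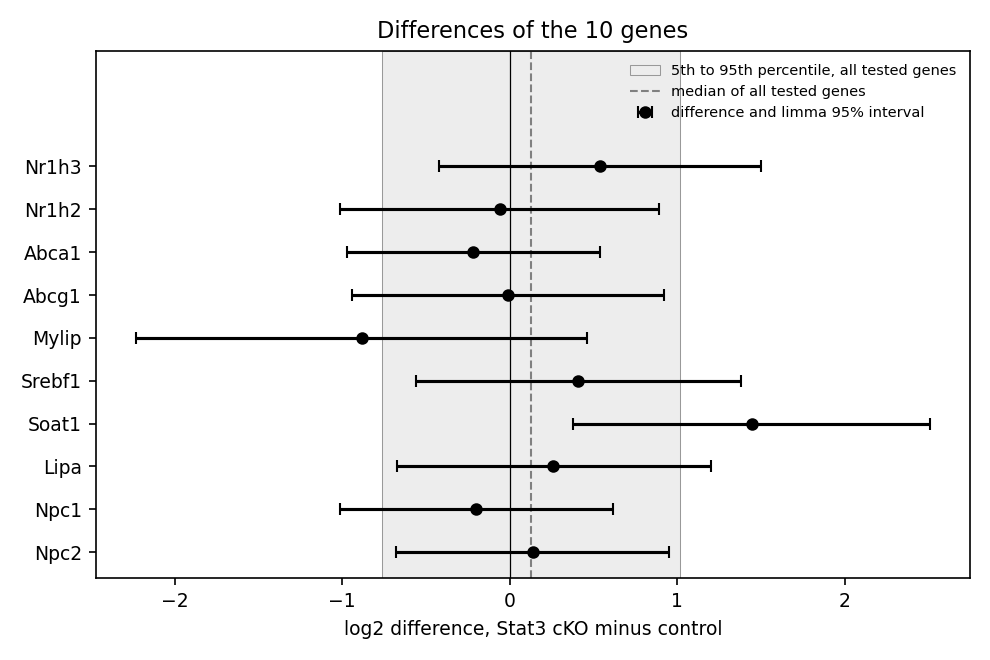
Log2 difference, Stat3 cKO minus control (x axis), of each gene (y axis) with its limma 95% interval as a bar, over a grey band for the 5th to 95th percentile of all tested genes (-0.76 to 1.02) and a dashed line for their median (0.13). Only the interval of Soat1 leaves out 0, and only Soat1 and Mylip lie outside the band.

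Cholesterol storage was represented by Soat1, which encodes sterol O-acyltransferase 1, the enzyme of the endoplasmic reticulum that makes cholesteryl esters in macrophages. The gene lies on chromosome 1 from 156424525 to 156474331. It stood at 0.51, 1.31 and 1.83 in knockout replicates 1, 2 and 3, and at -0.22 and -0.24 in the controls. All 3 lay above both controls, and they were spread over more than 1 log2 unit among themselves. The group means of 1.21 ± 0.67 (SD, n = 3) and -0.23 ± 0.017 (SD, n = 2) gave a log2 difference of 1.45 (SE 0.45, 95% interval from 0.38 to 2.51). The unadjusted limma p was 0.0148 and the adjusted p 0.604, so Soat1 did not pass, and 0.951% of tested genes had a larger difference. Over the 10 alternatives in which it was tested the difference ran from 1.14 to 1.80 and the adjusted p from 0.432 to 0.859.

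The controls of Soat1 lay where 0 reads would put them, or close to it. They differed by 0.024 in the direction of the fixed pattern, which implies a 0-read value of -0.2188. In 122 genes with no reads in any library and a pattern of like size, that value ran from -0.3091 to -0.22, so Soat1 was just outside. A pair of libraries is too few to settle the matter. If the controls had no reads, the difference sets detected against undetected RNA and has no fold change. Both controls, and no other library, had values spaced in this way in 5.02% of tested genes. Such genes, Soat1 among them, were counted as entering the test through libraries labelled knockout alone. Under a stricter filter, which asked for reads in at least 4 libraries, Soat1 and Nr1h3 were not tested.

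The mean levels of 3 marker lists of other myeloid cells were also higher in the libraries labelled knockout, and 0 of their genes passed the test. Of the tested genes, 4 of 7 for monocytes, 3 of 6 for neutrophils and 3 of 7 for border macrophages were counted as tested through libraries labelled knockout alone. The signs of single markers are therefore not counted. Over all listed markers in the table, both controls were at or near the 0-read value for 6 of 10, 8 of 11 and 4 of 8. Such markers could not put the means of the controls higher, so the list means are no independent sign of direction either. The neutrophil list (11 of 11 genes in the table) averaged 0.85, 0.39 and 0.78 in knockout replicates 1, 2 and 3 and -0.01 and 0.00 in the controls, with Elane at the 0-read value in all libraries. The monocyte list (10 of 11 in the table) averaged 0.97, 0.43 and 0.49 against -0.11 and 0.08, with Ly6c2 at the 0-read value throughout. The list of border macrophages (8 of 8), which live at the surfaces and vessels of the brain, averaged 0.97, 1.00 and 1.22 against 0.52 and 0.71. Soat1 was lowest in knockout replicate 1, where the monocyte and neutrophil lists were highest, and it had the order of the border macrophage list over the 3 libraries. The part of these cells in the Soat1 values was not tested. In bulk samples, more cells of a type and more RNA per cell cannot be told apart. The genes whose 5 values lay closest to those of Soat1, after centring each gene, were Lipt1, Sp6 and Rps4y2, at Euclidean distances of 0.23, 0.31 and 0.33 log2 units over the 5 libraries. These distances are a description and carry no test.

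The lysosomal genes showed small differences that lay within the spread of the libraries. Lipa encodes lysosomal acid lipase, which frees cholesterol from its esters, and lies on chromosome 19 from 34492318 to 34527474. It stood at 0.37, 0.37 and 0.69 in the knockout-labelled libraries, against -0.25 and 0.68 in the controls. Control replicate 1 alone was low, and the log2 difference of 0.26 (95% interval from -0.67 to 1.20, adjusted p = 0.883) became -0.20 without it and 0.73 without control replicate 2. Npc1 encodes the membrane protein that carries cholesterol out of the lysosome, and lies on chromosome 18 from 12189692 to 12236400. It stood at 0.33, 0.14 and 0.69 against 0.51 and 0.66, so the higher control lay just below knockout replicate 3. The log2 difference was -0.20 with SE 0.34 (95% interval from -1.01 to 0.62, adjusted p = 0.892). Npc2 encodes the soluble protein that hands cholesterol to NPC1, and lies on chromosome 12 from 84754562 to 84773152. It stood at 2.10, 2.67 and 2.34 against 2.28 and 2.19, with both controls inside the other group and a log2 difference of 0.14 (95% interval from -0.68 to 0.95, adjusted p = 0.947).

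How far single libraries carried these differences varied by gene. Abca1, Mylip and Npc1 kept their sign with each library left out in turn and with both rescalings. Soat1 and Nr1h3 did so too. Their controls lay at or near the 0-read value, so leaving out a library could not turn their sign. Nor could it turn the sign of Abca1, whose groups did not overlap. Abcg1, Nr1h2, Srebf1, Lipa and Npc2 changed sign at least once. Control replicate 1 was the lowest library for Abcg1, Srebf1 and Lipa, and these are the 3 genes whose differences moved most, together with Mylip, between leaving out one control and the other. The library kit does not mark strand, so reads from overlapping exons on opposite strands cannot be separated. By GENCODE vM21, Npc1 shares 5.31% of its exonic bases with other genes, mostly Rmc1, Srebf1 3.11%, mostly Rai1, and Nr1h3 1.35%, while the other 7 genes share 0%. Rmc1 and Rai1 lie on the opposite strand. The share of Nr1h3 is with Gm13783 on its own strand, as is the part of the Srebf1 share with Mir6922.

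**Figure D3:**
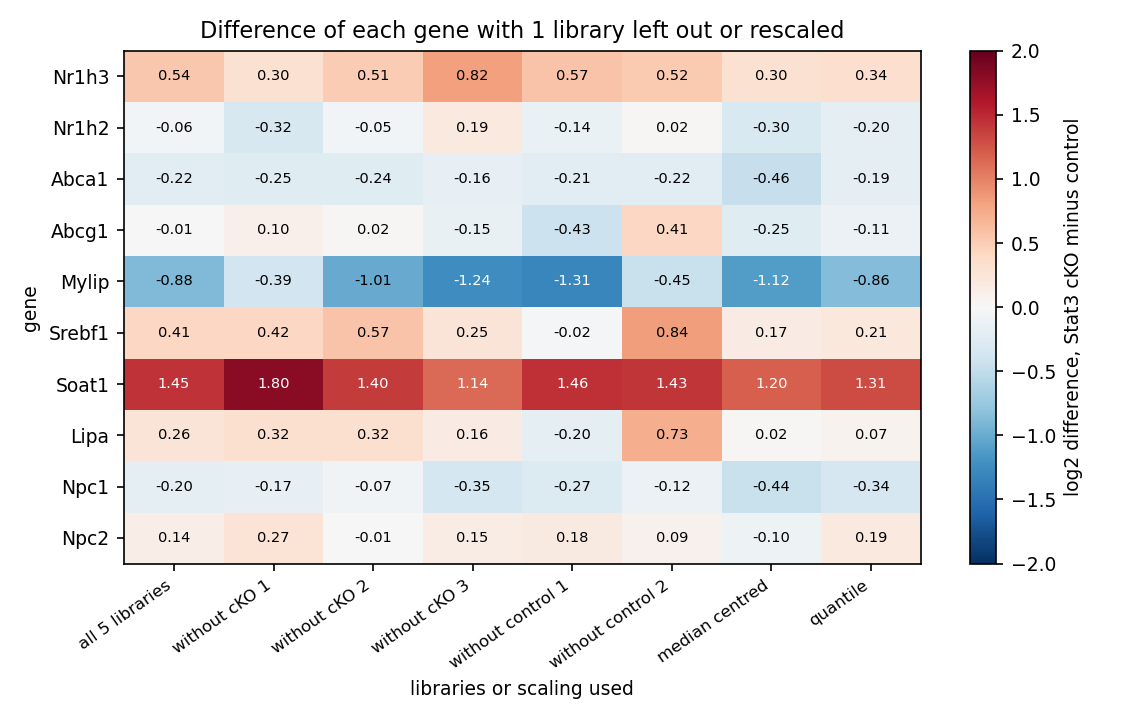
Log2 difference, Stat3 cKO minus control, of each gene (rows) with all 5 libraries, with each library left out, and with the libraries rescaled (columns), coloured from blue (negative) to red (positive). Soat1 stays between 1.14 and 1.80, whereas Abcg1 runs from -0.43 without control 1 to 0.41 without control 2.

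The rest of the pathway was read from 6 lists with 67 genes, of which 54 could be tested. Of these, 31 had a positive and 23 a negative difference, with a median of 0.10, and 0 passed the threshold, where 60.2% of all tested genes were positive. By the fixed pattern, libraries labelled knockout alone brought 9 of the 54 into the test, which fixes their sign as positive. They were 2 each among the partners and coregulators, the other LXR target genes, the lysosomal genes and the SREBP-2 arm, and Cyp27a1. The partners and coregulators of LXR had 8 of 13 tested genes positive and 5 negative (median 0.17). Rxrb, which encodes an obligate partner of LXR, stood at 1.03, -0.17 and -0.52 in the knockout-labelled libraries, against 1.92 and 1.20 in the controls. The groups did not overlap, with a log2 difference of -1.44 and a 95% interval from -2.71 to -0.18 (adjusted p = 0.605). Nrip1, which encodes a corepressor of nuclear receptors, stood at 0.54, -0.17 and 0.13 against 1.66 and 0.82, a difference of -1.07 (adjusted p = 0.605). Its groups did not overlap either. Rxra, the other partner measured, stood at 0.60, 0.59 and 0.19 against 0.30 and 0.18, a difference of 0.22. It is named beside Rxrb after its values had been seen.

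Other LXR target genes had 9 of 11 tested genes positive and 2 negative, with a median of 0.16, and 2 of the 9, Smpdl3a and Apoc1, could only be positive. Smpdl3a, which encodes a phosphodiesterase induced by cholesterol loading, stood at 1.20, 0.44 and 0.78 in the knockout-labelled libraries, against -0.22 and -0.24 in the controls (log2 difference 1.04, 95% interval from 0.18 to 1.90, adjusted p = 0.604). Its controls were spaced like those of Soat1 and may also hold no reads. Lpl, which encodes lipoprotein lipase, stood at 1.43, 2.25 and 2.15 against 1.08 and 1.38, a difference of 0.71 (adjusted p = 0.735). Apoe, the lipoprotein component that accepts exported cholesterol in the brain, stood at 1.78, 1.45 and 1.75 against 1.21 and 2.04, a difference of 0.04 with a 95% interval from -0.86 to 0.95. Apoe was added for its role after its values had been seen. Scd1 and Acsl3 were at the 0-read value in all 5 libraries, and Cd5l was listed at 0. Of the 4 enzymes that make or break down oxysterols, Ch25h, Cyp46a1 and Cyp7b1 were at the 0-read value in all 5 libraries. Cyp27a1, the fourth, stood at 0.49 and 0.48 in knockout replicates 1 and 2 and at the 0-read value in the other 3 libraries, the same libraries as for Nr1h3.

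Other genes of efflux and cholesteryl esters had 1 of 7 tested genes positive and 6 negative, with a median of -0.26, and 0 passed. Of all tested genes 60.2% were positive, with a median of 0.13. Abca7, a transporter related to Abca1, stood at 0.64, 0.33 and -0.15 in the knockout-labelled libraries, against 1.66 and 0.50 in the controls (log2 difference -0.81, adjusted p = 0.739). Plin3, which encodes a lipid droplet coat protein, stood at 0.82, 0.28 and 0.46 against 1.18 and 0.86, a difference of -0.50 (adjusted p = 0.754). Nceh1, whose product hydrolyses the esters that SOAT1 makes, was at the 0-read value in all libraries but knockout replicate 2 and was not tested. The other lysosomal and endosomal sterol genes had 8 of 12 positive and 4 negative, with a median of 0.14. Mcoln1, which encodes a lysosomal calcium channel, stood at -0.13, -0.41 and -0.86 against -1.25 and -1.34, a difference of 0.83 (adjusted p = 0.635). Gramd1b, which encodes a sterol transporter of the endoplasmic reticulum, stood at -0.23, -0.24 and -0.70 against -1.11 and -1.19, a difference of 0.76 (adjusted p = 0.645). In both genes the controls were spaced as 0 reads would give.

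The opposing arm, in which SREBP-2 raises cholesterol synthesis and uptake when sterols are low, had 4 of 10 tested genes positive and 6 negative, with a median of -0.14. Hmgcs1, which encodes an early enzyme of cholesterol synthesis, stood at -0.46, -0.47 and 0.08 against -1.31 and -1.40 (log2 difference 1.07, adjusted p = 0.604), again with controls spaced as 0 reads would give. Srebf2 itself stood at -0.08, -0.92 and -0.69 against 0.10 and 0.34, a difference of -0.78 (adjusted p = 0.685), and its groups did not overlap. Vldlr and Lrp8, lipoprotein receptors that MYLIP marks for degradation, were at the 0-read value in all 5 libraries.

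**Figure D4:**
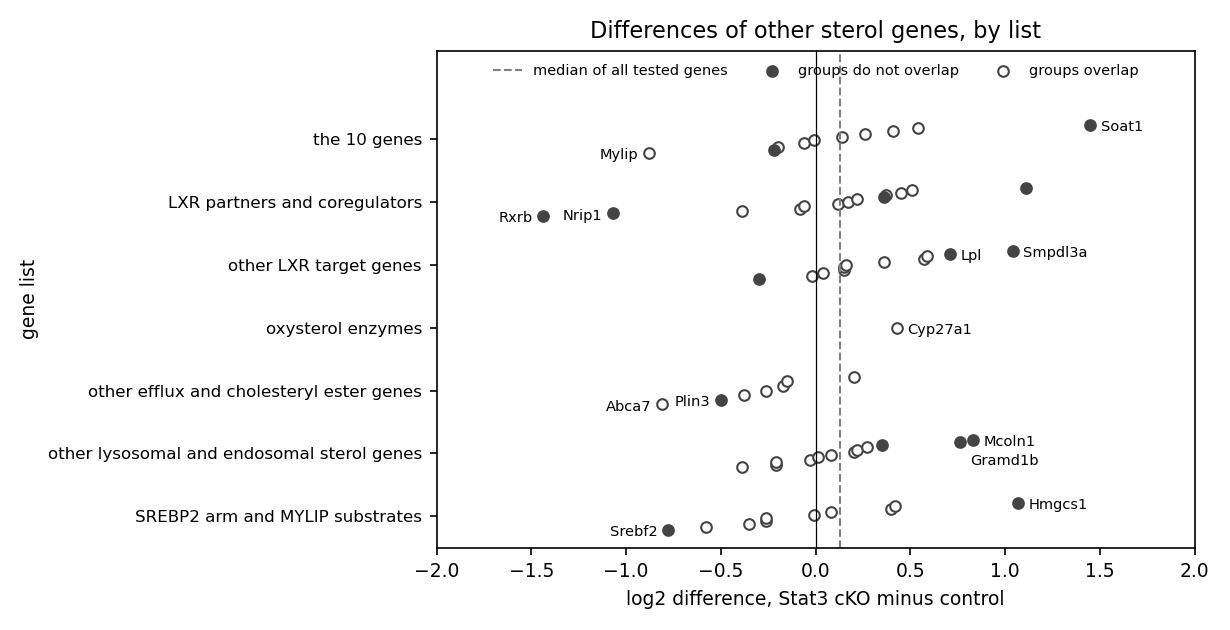
Log2 difference, Stat3 cKO minus control (x axis), of the 10 genes and of the tested genes of each list (rows), filled where the groups do not overlap, with the median of all tested genes (0.13) as a dashed line and names for the 2 smallest p of each list. Other genes of efflux and cholesteryl esters lie from -0.81 to 0.20. Soat1 lies at 1.45, with both controls at or near the 0-read value.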

How the data were processed

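PolyA RNA of 5 libraries (3 labelled knockout, 2 control) was sequenced with 40 bp reads. Per the labels, TopHat 2.0.13 at default settings aligned 95% of all reads to GRCm38/mm10. The submitters' processing notes also name DESeq2, with no role. For counting and gene annotation, the tool is not given in the sources used here. All deposited values were taken as log2, centred per gene, because they run from -4.12 to 7.69 with both signs and look like a regularized log, which shrinks differences of genes with few reads.

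The value of 0 reads was found from the fixed pattern of 4463 genes (tolerance 2% of the range, span at most 0.1157, value below 0). A gene was tested if it lay above that value in 2 or more libraries, which left 9459 genes. Also dropped were 6974 genes listed at 0 in every library and 27 gene names that had become dates. The test was limma (~ group, without trend or robust estimation, two-sided, Benjamini-Hochberg over all tested genes, threshold 0.05). It was also run on simulated data for 9459 genes. Of 200 genes given a log2 difference of 1 there, 1.5% passed, with 37.5% for a difference of 2 and 81% for 3. Of 8859 genes given a difference of 0, 0.1% passed. A gene that did not pass can therefore still differ. Replicates are separate pools of pups. Alternatives were median centring, quantile normalization, no filter, a stricter filter, trend with robust estimation, each library left out, and the replicate number as a block.

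The 10 genes and all lists were chosen with earlier results of these data known. Named genes are the 10, Stat3, Cx3cr1, the 2 genes of smallest p in each pathway list, and the 3 genes closest to Soat1. Genes named for another reason, such as those at the value of 0 reads, the other markers, Rxra, Apoe, Apoc1 and Nceh1, were chosen after their values were seen. The fits used limma 3.58.1 in R 4.3.3, tables were made with pandas 2.3.3 in Python 3.11.15, and plots with matplotlib 3.10.9. Positions are counted from 1.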

Additional observations from a re-analysis of the deposited data

How the results depend on the processing

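No member passed the threshold under any of the 11 alternatives, and 98 of 108 differences of single members kept their sign. Among these are all 10 for Soat1, all 10 for Nr1h3 and all 11 for Abca1, whose signs could not turn when a library was left out. For every member, no filter, the stricter filter and trend with robust estimation leave the difference as it was. The count of kept signs is therefore partly fixed in advance. The differences that changed sign were, with libraries centred on their median, Npc2 at -0.10, and with the replicate block Nr1h2 at 0.19. With 1 library left out they fell in ranges of -0.43 to 0.41 for Abcg1, -0.20 to 0.73 for Lipa, -0.02 to 0.84 for Srebf1, -0.014 to 0.27 for Npc2 and -0.32 to 0.19 for Nr1h2. The median of the 10 was -0.18 with median centring, -0.023 with quantile normalization, -0.034 with the stricter filter, which tested 8 of them and left 3 positive, and 0.16 with the replicate block. With 1 library left out it ran from -0.17 to 0.25, both reached by leaving out a control (replicate 1 and replicate 2), and the counts of positive and of negative members each ran from 3 to 7. The median of all tested genes moved from 0.13 to -0.11 with median centring and -0.01 with quantile normalization. Without the filter 1 gene, Sord, passed (limma adjusted p = 0.00853, against 0.396 to 0.859 as the smallest under the other alternatives). At an unadjusted p under 0.05 there were 760 genes in the fit reported, and from 393 to 1130 under the alternatives.

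The replicate block used replicates 1 and 2 and gives the differences of leaving out knockout replicate 3. Nothing in the labels says that a number marks a shared litter or day. The deviations of same-numbered libraries from their group means correlated at 0.00 and -0.07 over genes. The 2 controls deviate from their mean by equal and opposite amounts, so these values say little about pairing. Depth is unknown, so no detection limit is given.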
